A study of Oryza sativa Japonica Group with 12 samples.

Results

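Gene expression was compared within couple 67.1, which consists of a rice line that overexpresses the transcription factor gene OsbHLH044 (line 67.1.11.7, called OE 67.1) and of its null segregant sister line without the T-DNA (line 67.1.1.5, called null 67.1). These were all 6 arrays of this couple, 3 for OE 67.1 and 3 for null 67.1, of 12 arrays in all. The other 6 arrays belonged to couple 67.5, an independent transformant with its own null sister line, and are used here for the shared estimate of the spread and for the test of the difference between couples. Every line, null lines included, was in the crl1 mutant of cultivar Taichung 65, and CRL1 is required for crown roots to form. The overexpression construct is named pC5300.OE, and its promoter is not given in the sources used here. Stem bases were taken from 6-day-old plantlets, after 5 days on wet filter pads and 24 h in liquid medium. Each array came from an independent repetition with 8 to 12 stem bases ground together. The comparison asks which genes change when OsbHLH044 is overexpressed in a plant that makes no crown roots. Each genotype of the couple was a single line, so the transgene cannot be told apart from other differences between these sister lines.

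Basic helix-loop-helix factors such as OsbHLH044 bind DNA as dimers at short E-box motifs and activate or repress nearby genes, and in plants they act in development, in iron and phosphate nutrition and in stress responses. In rice the crown roots that make up most of the root system arise in the stem base, beside the vascular cylinder, and CRL1 is an early switch of this step downstream of auxin. The stem base also holds the shoot meristem, young leaf sheaths and, in seedlings, tissue that still draws on the reserves of the seed.

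The values were deposited on the log2 scale after RMA, so a positive difference of 1 is a doubling in level. Precision is limited by the small number of arrays. Of 24251 probe sets paired with a gene, the 6 arrays of the couple had medians between 4.52 and 4.55, and arrays of the same line correlated at 0.986 to 0.992 over these probe sets. No probe set tested carried the name OsbHLH044 or CRL1, so the levels of both are not reported here. Among markers of the cell types that a stem base can hold, 5 of 6 markers of green tissue and 4 of 5 markers of the shoot meristem lay above the median of each of the 6 arrays. The mean level of the green markers was 6.97 to 7.09 in OE 67.1 and 7.03 to 7.12 in null 67.1. Of the crown root primordium and root apex markers, 3 of 6 lay above the median on every OE 67.1 array and 2 or 3 on the null 67.1 arrays, with mean levels of 4.35 to 4.54 in OE 67.1 and 4.49 to 4.65 in null 67.1. None of the 12 markers of seed and endosperm lay above the median of any array, and their mean level was 2.70 to 2.79 in OE 67.1 and 2.82 to 2.91 in null 67.1. Vascular markers, 6 in all, had mean levels of 4.76 to 4.82 in OE 67.1 and 4.84 to 4.94 in null 67.1, and 28 root markers had 4.12 to 4.21 in OE 67.1 and 4.18 to 4.24 in null 67.1. In the mean of the vascular and of the seed markers, every OE 67.1 array thus lay below every null 67.1 array, and no marker passed. Single markers were mixed. Of the vascular ones 2 were higher and 4 lower, and the lines did not overlap in 1, Hox19, at -0.37. Of the seed ones, all at low levels, 2 were higher and 10 lower, and the lines did not overlap in 2. AMY1.1 differed most of these, by -0.50. Over all probe sets, 9.29% did not overlap. The part of cell composition in the results below was not tested. In such bulk tissue, fewer cells of a type and less RNA per cell cannot be told apart.

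Overexpression in couple 67.1 went with few changes. Higher in OE 67.1 were 3 genes known by locus number alone, and ICL, the isocitrate lyase of the glyoxylate cycle, was lower. In limma's moderated test with Benjamini-Hochberg adjustment over all 24251 probe sets, 4 had an adjusted p under 0.05 (0.0165%), of which 3 were higher (0.0124%) and 1 was lower (0.00412%). Only 10 probe sets differed by 1 or more on the log2 scale, and 110 by 0.5 or more, 58 of them higher and 52 lower. An unadjusted p under 0.05 was found for 840 (3.46%). The median difference over all probe sets was 0.007 and the middle range from the lower to the upper quartile was -0.063 to 0.074. The median SE of a difference was 0.109, and the smallest difference that passed was 0.841.

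LOC4331887 rose most of all annotated probe sets. It is protein-coding in the gene table and has no informative name there, so whether it is OsbHLH044 itself cannot be told here. Its level was 9.65, 9.76 and 9.64 on the arrays of OE 67.1, against 6.25, 6.51 and 6.14 on those of null 67.1. The lines lay far apart, and each was tight within itself. The difference was 3.38 ± 0.11 (log2 ± SE, n = 3 each, 10.4-fold, adjusted p = 7.03e-10 in limma). Over the 12 arrays its mean level was above that of 97.8% of the tested probe sets.

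LOC9267697, a long non-coding RNA gene in the gene table, rose by 1.94 ± 0.28 (3.83-fold, limma adjusted p = 0.0381). The OE 67.1 arrays gave 7.01, 6.21 and 6.11 and the null 67.1 arrays 4.50, 4.37 and 4.65. The groups did not overlap, and replicate 1 of OE 67.1 stood above its sister arrays. This call was lost with the 3 alternatives of a replicate block (adjusted p = 0.0699), all probe sets in the test (adjusted p = 0.216) and an intensity trend with robust variance (adjusted p = 0.0689), and without any 1 of 7 arrays, namely each array of null 67.1, replicates 1 and 2 of OE 67.1, replicate 2 of null 67.5 and replicate 3 of OE 67.5. The difference kept its direction in all of these.

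LOC4343264, protein-coding and without an informative name, rose by 1.31 ± 0.14 (2.48-fold, limma adjusted p = 0.00269). It had levels of 5.90, 6.38 and 6.48 in OE 67.1, against 5.03, 5.10 and 4.70 in null 67.1. All OE 67.1 arrays lay above all null 67.1 arrays. With only the 6 arrays of the couple in the fit the adjusted p was 0.0571.

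ICL (LOC4343441) fell by 0.84 ± 0.11 on the log2 scale (limma adjusted p = 0.0112). Isocitrate lyase lets germinating seedlings turn fatty acids into sugar through the glyoxylate cycle. Its level was 5.37, 5.36 and 5.29 in OE 67.1, against 6.20, 6.21 and 6.14 in null 67.1. Within each line the arrays were close together, with an SD of 0.05 in OE 67.1 and 0.04 in null 67.1. The call was lost without replicate 1 or 2 of null 67.1 or without any 1 array of OE 67.1, with a highest adjusted p of 0.115, while the difference stayed between -0.89 and -0.81.

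Another 12392 probe sets were paired with no gene in the annotation, and when all 36643 were tested together, 6 passed (0.0164%). Of these, 3 were among the unpaired ones (0.0242% of them). Probe set 16362807 had the largest difference on the array. It lay at 10.88, 10.91 and 10.90 in OE 67.1, against 4.42, 4.14 and 4.39 in null 67.1, a difference of 6.58 ± 0.10 (95.6-fold, limma adjusted p = 6.04e-12). Probe set 16270679 lay at 3.51, 3.52 and 3.84 in OE 67.1, against 7.20, 7.80 and 8.69 in null 67.1, a difference of -4.27 ± 0.36 (limma adjusted p = 0.000827). Probe set 16342606 had 6.74, 7.02 and 6.90 in OE 67.1 and 9.19, 9.34 and 10.09 in null 67.1, a difference of -2.65 ± 0.27 (limma adjusted p = 0.00453). Each of these probe sets separated the lines completely, and each call held without any 1 of the 12 arrays. The same contrast in couple 67.5 had the same signs, at 6.84 ± 0.10, -5.67 ± 0.36 and -2.70 ± 0.27 in the same order. For probe set 16270679 the couples differed by 1.395 ± 0.505 (limma adjusted p = 0.999, unadjusted p = 0.0176). What they detect is not known from the sources used here, so whether probe set 16362807 reads OsbHLH044 itself cannot be told. Of the 4 calls among annotated probe sets, 3 remained in this larger test and that of LOC9267697 did not.

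**Figure D1:**
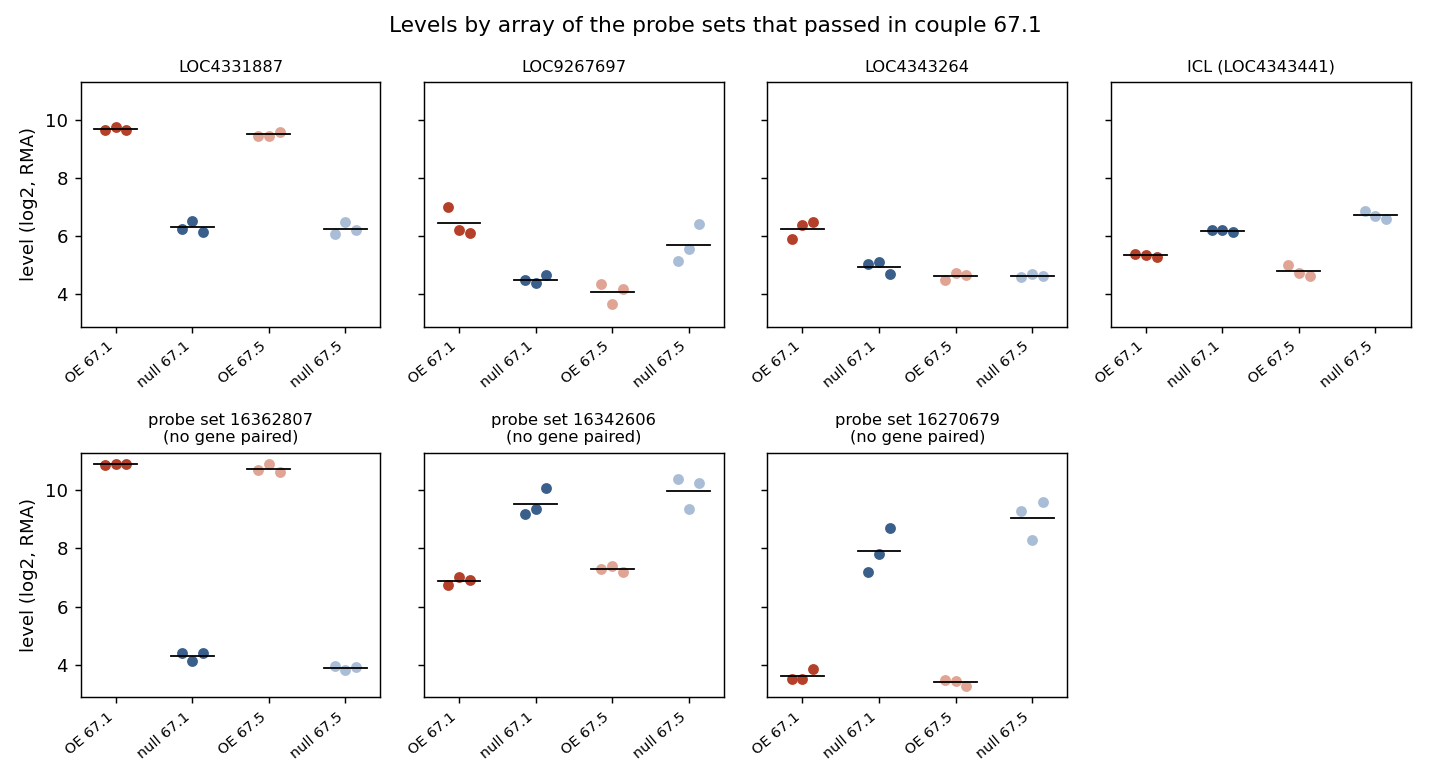
Levels on each array (log2, RMA) of the 4 annotated probe sets that passed in couple 67.1 and of the 3 unpaired probe sets that passed when all were tested. Points are arrays and bars are line means, with the lines of couple 67.5 in paler colours, and OE 67.1 and null 67.1 do not overlap in any panel, with LOC4331887 at 9.64 to 9.76 in OE 67.1 and at 6.14 to 6.51 in null 67.1.

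The genes next to the passing ones in the order of the gene table did not share their differences. The nearest measured genes on either side of LOC4331887 differed by -0.07 and -0.01, those beside LOC9267697 by -0.06 and -0.03, and those beside LOC4343264 by 0.11 and -0.14. Beside ICL the differences were -0.13 and 0.31. None of these 8 neighbours passed. TIP1;2 (LOC4324303), which is described below and did not pass, had a neighbour, LOC4324302, with a difference of -0.51 ± 0.11 (limma adjusted p = 0.361). Its OE 67.1 and null 67.1 arrays did not overlap, as in 9.29% of all probe sets, and it was chosen after its values were seen. Neighbours of other genes below the threshold went both ways. Opposite to their genes were LOC4335304 beside SUS7, at 0.872, and LOC9270180 beside LOC9271957, at 0.691. In the direction of their genes were LOC4349331 near LOC4349329, at -0.361, and LOC9267662 near LOC4331398, at 0.293.

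The response was also looked at by level, with the tested probe sets split into 4 bands of equal size by their mean over all 12 arrays. The brightest band reached from 5.65 to 11.18 and held 2 of the passing probe sets, the next band, from 4.54 to 5.65, held the other 2, and the 2 dimmer bands held none. From the dimmest to the brightest band, 0.115%, 0.396%, 0.61% and 0.693% of probe sets differed by 0.5 or more. The share with an unadjusted p under 0.05 was 2.41%, 3.65%, 3.61% and 4.19%. The share whose arrays did not overlap was 8.84%, 9.67%, 8.56% and 10.1%, with 9.29% over all bands. The median size of the difference was 0.061, 0.071, 0.0731 and 0.0702, while the median SD within lines was 0.107, 0.125, 0.129 and 0.124. The difference is between line means and the SD is between arrays of a line, and means vary less than single arrays. Which of these values is the larger therefore does not tell whether there was a response in a band. In couple 67.5, 0.528%, 1.25%, 1.4% and 1.57% of the probe sets in the same bands differed by 0.5 or more.

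**Figure D2:**
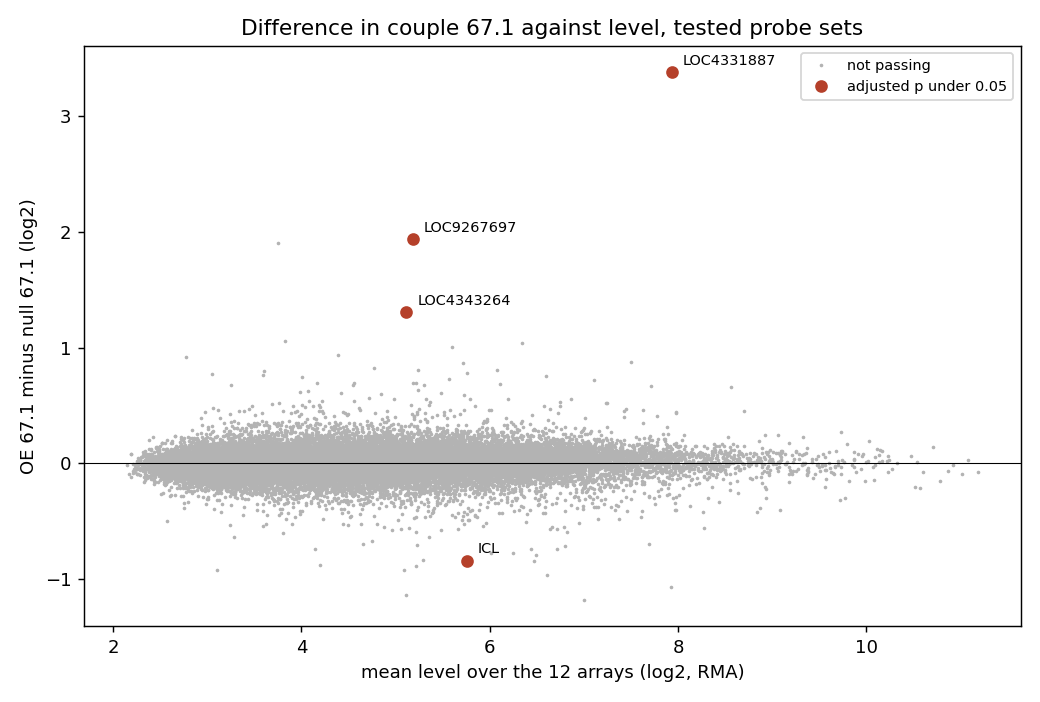
Difference between OE 67.1 and null 67.1 (log2, vertical axis) against the mean level over the 12 arrays (log2, horizontal axis) for the 24251 tested probe sets. The 4 passing probe sets are marked, and LOC4331887, at 3.38, lies apart from all others.

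Size by itself did not make a call. Of the 10 probe sets with a difference of 1 or more, 3 passed, and in 5 of the others the OE 67.1 and null 67.1 arrays overlapped. These were taken up after their values were seen. LOC4347412 lay at 6.77, 3.29 and 5.96 in OE 67.1, against 3.01, 3.33 and 3.96 in null 67.1, for a difference of 1.91 ± 0.62. LOC4331781 lay at 7.78, 4.66 and 7.11 in OE 67.1 and at 4.32, 5.53 and 6.67 in null 67.1, a difference of 1.01 ± 0.73. LOC4340085 had 7.70, 6.46 and 7.99 in OE 67.1 and 4.61, 6.63 and 7.77 in null 67.1. In all 3 genes replicate 2 was the lowest array of OE 67.1 and replicate 1 the lowest of null 67.1. LOC9267215 was low on replicate 1 of OE 67.1 alone, with 5.55, 8.95 and 8.63 in OE 67.1, against 8.73, 9.15 and 8.79 in null 67.1. None of these 4 had an adjusted p below 1 in limma.

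Below the threshold came a group of genes with differences of moderate size. On the higher side, LOC9270995 had levels of 5.29, 5.32 and 5.32 in OE 67.1 and 4.50, 4.62 and 4.33 in null 67.1, a difference of 0.82 ± 0.13 (limma adjusted p = 0.061). It passed with only the 6 arrays of the couple (adjusted p = 0.0385), and in 4 other alternatives. LOC9272192, another long non-coding RNA gene, differed by 0.67 ± 0.11 (limma adjusted p = 0.0713) at a low level of 3.76 to 3.89 in OE 67.1 and 2.95 to 3.25 in null 67.1. LOC4331398 differed by 0.87 ± 0.15, LOC4327205 by 0.75 ± 0.15 and LOC9266913 by 0.48 ± 0.09, with adjusted p-values of 0.138 to 0.235 in limma. In all 5 the arrays of the lines did not overlap, as in 9.29% of all probe sets, and choice by smallest p favours this.

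On the lower side stood first LOC4341305, with 5.87, 5.81 and 6.21 in OE 67.1, against 6.95, 6.78 and 6.70 in null 67.1. Its difference of -0.84 ± 0.13 came closest to the threshold (limma adjusted p = 0.0548) and was past it in 6 alternatives. LOC4349329 differed by -1.07 ± 0.17 (limma adjusted p = 0.0713), with 6.95, 6.68 and 7.46 in OE 67.1 and 7.81, 8.11 and 8.38 in null 67.1. For LOC9271957, LOC4347418 and LOC4337962 the differences were -0.74 ± 0.13, -0.74 ± 0.14 and -0.43 ± 0.09. Like those on the higher side they had no overlapping arrays, and they were likewise chosen by smallest p. Of the 16 probe sets with the smallest p, 8 in each direction, 14 were protein-coding and 2 long non-coding in the gene table, and 3 had an informative name, namely ICL, SUS7 and TIP1;2.

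After ICL, the lower side of the informatively named genes, taken by smallest p, held 11 genes that did not pass. TIP1;2 (LOC4324303), an aquaporin of the vacuolar membrane, lay at 4.55, 4.48 and 4.36 in OE 67.1, against 5.64, 5.42 and 5.74 in null 67.1. Its difference of -1.14 ± 0.23 did not pass over all genes (limma adjusted p = 0.243), and it passed with only the 6 arrays of the couple (adjusted p = 0.0119) and without replicate 2 of null 67.5 (adjusted p = 0.00493). SUS7 (LOC4335303), a sucrose synthase, lay at 6.07, 6.41 and 6.43 in OE 67.1, against 7.41, 7.18 and 7.22 in null 67.1, a difference of -0.97 ± 0.17 (limma adjusted p = 0.127). Its mean was 6.43 in OE 67.5 and 6.42 in null 67.5, nearer to OE 67.1 than to null 67.1. The difference between couples did not pass for SUS7 (limma adjusted p = 0.455). CIN2 (LOC4335790), a cell wall invertase, had a difference of -0.48 ± 0.14. NAS3 (LOC4344361), a nicotianamine synthase whose product carries iron and other metals, lay at 5.15, 5.42 and 5.75 in OE 67.1 and 5.93, 6.16 and 6.54 in null 67.1, with a difference of -0.77 ± 0.16 (limma adjusted p = 0.244). In the silicon channel gene Lsi6 (LOC4340558) the difference was -0.39 ± 0.11.

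The other 6 had adjusted p-values of 0.424 or more in limma. CML1 (LOC4327351), a calmodulin-like calcium sensor, lay at 4.67, 5.00 and 4.78 in OE 67.1 and 5.73, 5.45 and 5.78 in null 67.1 (-0.83 ± 0.22, limma adjusted p = 0.689). LOL4 (LOC4344587), of the zinc finger family of the cell death regulator LSD1, lay at 5.82, 5.61 and 5.58 in OE 67.1 and 6.22, 6.24 and 6.17 in null 67.1 (-0.54 ± 0.12, limma adjusted p = 0.424). CEBIP (LOC4331522), the receptor for chitin fragments, differed by -0.40 ± 0.10, the nucleoredoxin Nrx1-1 (LOC4333075) by -0.45 ± 0.13, and PPT1 (LOC4346653) by -0.57 ± 0.14. GH3.1 (LOC4327043), of the enzyme family that conjugates auxin to amino acids, differed by -0.33 ± 0.09. With ICL these were 12 genes. In all 12 the arrays of the lines did not overlap, as in 9.29% of all probe sets, and choice by smallest p favours this.

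The 12 named genes with the smallest p on the higher side had smaller differences, from 0.28 to 0.81, and adjusted p-values in limma of 0.968 or 1. They included DAHPS1 (LOC4333014), the entry enzyme of the shikimate pathway, with 5.74, 5.82 and 5.79 in OE 67.1 and 5.32, 5.62 and 5.41 in null 67.1, and TPP1 (LOC4330221), a trehalose phosphate phosphatase, with 5.26, 4.93 and 5.33 in OE 67.1 and 4.73, 4.71 and 4.86 in null 67.1. CIPK2 (LOC4344287), a kinase that works with calcineurin B-like calcium sensors, differed by 0.41 ± 0.13. CAD2 (LOC4328552), a cinnamyl alcohol dehydrogenase of lignin synthesis, differed by 0.40 ± 0.13, and the beta-glucosidases BGLU4 (LOC4325106) and BGLU26 (LOC4344146) by 0.38 ± 0.12 and 0.33 ± 0.10. The others were PP2C68 (LOC4346736, a protein phosphatase), HSP16.9B (LOC4325698, a small heat shock protein), LFNR1 (LOC4339874, a leaf ferredoxin reductase), SWEET12 (LOC4332825, a sugar transporter), YSL2 (LOC4330161, a carrier of metal complexes) and LOC4348646, which the gene table lists both as HSFA2C and as ARD1. LOC4348646, a transcribed pseudogene in the gene table, had the largest difference, 0.81 ± 0.28. Its arrays overlapped, with 6.77, 5.79 and 6.78 in OE 67.1 and 4.96, 5.85 and 6.12 in null 67.1. The arrays also overlapped in SWEET12 and YSL2, and did not in the other 9, which choice by smallest p favours.

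**Figure D3:**
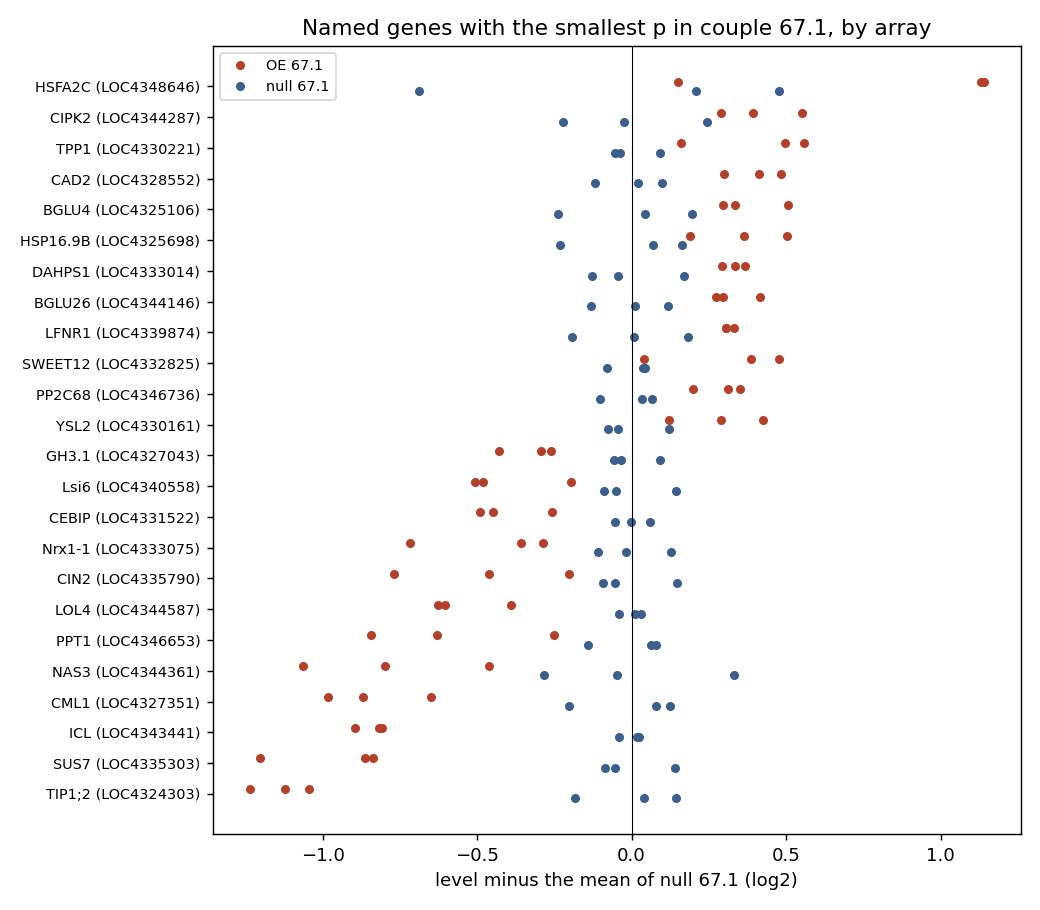
Levels of the 24 named genes with the smallest p, on each array, as the difference from the mean of null 67.1 (log2). Red points are OE 67.1 and blue points null 67.1, and of these genes ICL passed, at 5.29 to 5.37 in OE 67.1 and 6.14 to 6.21 in null 67.1.

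Gene families were described with 33 lists matched on gene names, which together held 1200 probe sets. Of these, 1 passed, ICL. The medians of the lists lay between -0.21 and 0.35, against a median of 0.007 over all tested probe sets, and 14 were above 0 and 18 below. Over all tested probe sets, 52.7% were higher, 4.8% higher without overlap and 4.48% lower without overlap. After the further quantile normalization 47.3% of all probe sets were higher and their median was -0.007, so list medians this close to 0 have no settled direction.

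Lists on the hormones and regulators of root formation showed no passing member. Of 76 auxin genes, 34 were higher and 42 lower, and the arrays of the lines did not overlap in 9 (11.8%, against 9.29% of all probe sets). Besides GH3.1, the smallest p on the higher side belonged to ARF10 (LOC4336419), an auxin response factor, with a difference of 0.23 ± 0.09. Of 41 cytokinin genes 27 were lower, with a median of -0.04, and the lines overlapped in all 41. RR6 (LOC4337372) and RR2 (LOC4329677), response regulators of the cytokinin pathway, differed by 0.13 ± 0.10 and -0.17 ± 0.11. The crown root regulators, 21 in all, had a median of 0.008. SHR1 (LOC4343753), a GRAS factor of radial root patterning, lay at 5.99 ± 0.13 in OE 67.1 and 6.25 ± 0.08 in null 67.1 (SD, n = 3 each), a difference of -0.26 ± 0.09. The homeobox gene HOX1 (LOC4349388), chosen after its values were seen, differed by -0.22 ± 0.09. WOX11 (LOC4344325), a homeobox factor of crown root emergence and likewise chosen afterwards, had 5.65, 5.79 and 6.08 in OE 67.1 and 5.88, 6.06 and 5.88 in null 67.1, so that the lines overlapped. The quiescent centre gene QHB (LOC4324824) differed by 0.01 ± 0.14 at a level near 3.3 in both lines.

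The gibberellin list had 9 members higher and 9 lower, with SLRL1 (LOC4325922), a DELLA-like protein, at 0.24 ± 0.14 and the oxidase gene listed as CYP88A5 and KAO (LOC4339885) at -0.17 ± 0.10. The ethylene list had 9 of 13 members lower and a median of -0.08. ACO1 (LOC4347225), which makes ethylene, lay at 8.84 in OE 67.1 and 9.04 in null 67.1 (-0.20 ± 0.08, limma adjusted p = 1). ETR2 (LOC4335058), an ethylene receptor, differed by 0.14 ± 0.13. Abscisic acid and dehydration genes had 25 of 55 higher, 5 of them without overlap and none lower without overlap. Their share without overlap, 9.09%, was near the 9.29% of all probe sets. PP2C68 had the smallest p of this list, and the dehydrin Dhn1 (LOC4330265) differed by -0.17 ± 0.09. Of 38 jasmonate genes 22 were higher, with a median of 0.03 that was -0.02 without replicate 3 of null 67.1, and the repressors JAZ7 (LOC4343899) and JAZ8 (LOC4347164) differed by 0.28 ± 0.14 and -0.16 ± 0.10.

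No gene on the lists of cell division and of ribosomal proteins passed. Of 71 cell cycle and DNA replication genes, 51 were higher (71.8%, against 52.7% of all probe sets) with a median of 0.05. Without overlap were 8 higher and 1 lower (12.7%, against 9.29% of all probe sets). CDKF-1 (LOC4340934), a kinase that activates cyclin-dependent kinases, differed by 0.28 ± 0.11 and KRP1 (LOC4330816), an inhibitor of such kinases, by -0.24 ± 0.10. POLD1 (LOC4349968), the catalytic subunit of DNA polymerase delta, chosen after its values were seen, lay at 6.39, 6.33 and 6.41 in OE 67.1 and 5.94, 6.21 and 6.25 in null 67.1. Of 10 histone genes 7 were higher, with H2B.10 (LOC4324495) at 0.28 ± 0.15, and the median, 0.07, was -0.004 without replicate 3 of OE 67.1. Of 24 cytosolic ribosomal protein genes 20 were higher (83.3%, against 52.7% of all probe sets), with a median of 0.05, and the lines overlapped in all 24. RPL11 (LOC4338077) differed by 0.14 ± 0.12, and RPS27AA (LOC4326977) by -0.12 ± 0.13. Without replicate 3 of OE 67.1, the number of ribosomal protein genes that were higher was 12, and the cell cycle median was 0.02.

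Stress and defence lists were likewise without a passing member. The heat shock list had 23 of 49 members higher, and 1 higher and 4 lower without overlap (10.2%, against 9.29% of all probe sets). The small heat shock protein genes HSP16.9B and HSP16.9A (LOC4325697), whose names the gene table shares between them, differed in opposite directions, by 0.35 ± 0.12 and -0.28 ± 0.10, and both values are uncertain where probes do not separate such similar genes. Of 79 antioxidant enzymes and glutathione transferases 50 were lower, with Nrx1-1 first. There were 7 lower and 1 higher without overlap (10.1%, against 9.29% of all probe sets). Without replicate 3 of null 67.1, 44 of the 79 were higher. The thioredoxin Trxh1 (LOC4342593), chosen after its values were seen, lay at 7.90 on each array of OE 67.1, against 8.11, 8.29 and 8.55 in null 67.1. Among genes of programmed cell death, senescence and autophagy, 15 of 27 were lower and the median was -0.03. Besides LOL4, the senescence-associated protease SAG12 (LOC4324982), chosen after its values were seen, had 4.85, 4.65 and 4.59 in OE 67.1 and 5.11, 5.25 and 6.39 in null 67.1, where replicate 3 stood above the others, and LSD1 (LOC4344713) differed by 0.27 ± 0.15. Chitinases and other pathogenesis-related proteins, 17 in all, had a median of 0.01, and diterpenoid phytoalexin genes, 19 in all, one of 0.02, with MAS (LOC4335093), which acts in momilactone synthesis, at 0.24 ± 0.10. ER chaperones had a median of 0.01 and 3 of 29 members without overlap (10.3%, against 9.29% of all probe sets). Factors of the WRKY, NAC, MYB and AP2/ERF families had medians from -0.03 to 0.03 and at most 1 member each without overlap.

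Of the bHLH family itself, 19 probe sets carried a name, 9 were higher and 10 lower, and the lines overlapped in all 19. BHLH063 (LOC4332972), also listed as the iron-related factor IRO3, differed by 0.12 ± 0.09 and BHLH004 (LOC4349271) by -0.19 ± 0.11. Among 59 homeobox genes 35 were lower, and 5 lower and 1 higher had no overlap (10.2%, against 9.29% of all probe sets). Hox19 (LOC4332147), expressed in vascular tissue, differed by -0.37 ± 0.13 and Roc4 (LOC4336705) by 0.18 ± 0.09. Hox19 lay at 5.85 ± 0.03 in OE 67.1 and 6.22 ± 0.13 in null 67.1 (SD, n = 3 each).

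Of 6 genes of the glyoxylate cycle and gluconeogenesis, 4 were lower and the median was -0.21. Of these 4, 3 were without overlap (50% of the list, against 9.29% of all probe sets). After ICL came PPDK1 (LOC4338750), a pyruvate phosphate dikinase, with 3.80, 3.83 and 3.76 in OE 67.1, against 4.16, 3.95 and 4.30 in null 67.1, and MS (LOC9268154), the malate synthase of the same cycle, with 5.37, 5.24 and 5.03 in OE 67.1 and 5.36, 5.85 and 5.54 in null 67.1. Neither passed, with differences of -0.34 ± 0.10 and -0.37 ± 0.16, and the lines overlapped in MS. Both were chosen after their values were seen. PPDK2 (LOC4333181) differed by 0.28 ± 0.19. Of 16 seed storage and amylase genes 13 were lower, 3 without overlap (18.8% of the list), and the median was -0.08. The amylase AMY1.1 (LOC4330832) lay at 2.28 ± 0.13 in OE 67.1 and 2.78 ± 0.28 in null 67.1 (SD, n = 3 each), among the dimmest of the array in both, and is itself a marker of seed tissue.

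In the list of sugar genes the lines did not overlap in 23.7% of 59 members, against 9.29% of all probe sets, with 11 lower and 3 higher. SUS7, CIN2 and TPP1 led this list, and SWEET13 (LOC4352201), a sucrose exporter chosen after its values were seen, had 8.92, 8.74 and 8.70 in OE 67.1, against 9.16, 9.02 and 9.09 in null 67.1. None passed over all genes.

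The list of fermentation and low oxygen had the highest median, 0.35, with 4 of 7 genes higher and none of these without overlap. This median was 0.175 without replicate 1 of null 67.1 and 0.222 without replicate 3 of OE 67.1, and 0.556 without replicate 3 of null 67.1. PDC2 (LOC4332519), a pyruvate decarboxylase, differed by 0.46 ± 0.19 and PDC3 (LOC4344382) by -0.08 ± 0.08. The hemoglobin gene NSHB1 (LOC4332166), which is responsive to low oxygen, lay at 8.40, 6.93 and 8.00 in OE 67.1 and 6.33, 7.15 and 7.68 in null 67.1, and NSHB2 (LOC4332123) at 7.96, 6.73 and 8.25 in OE 67.1 and 6.44, 7.18 and 7.77 in null 67.1, both chosen after their values were seen. Replicate 2 was again the lowest array of OE 67.1 and replicate 1 the lowest of null 67.1, as in LOC4347412, LOC4331781 and LOC4340085.

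**Figure D4:**
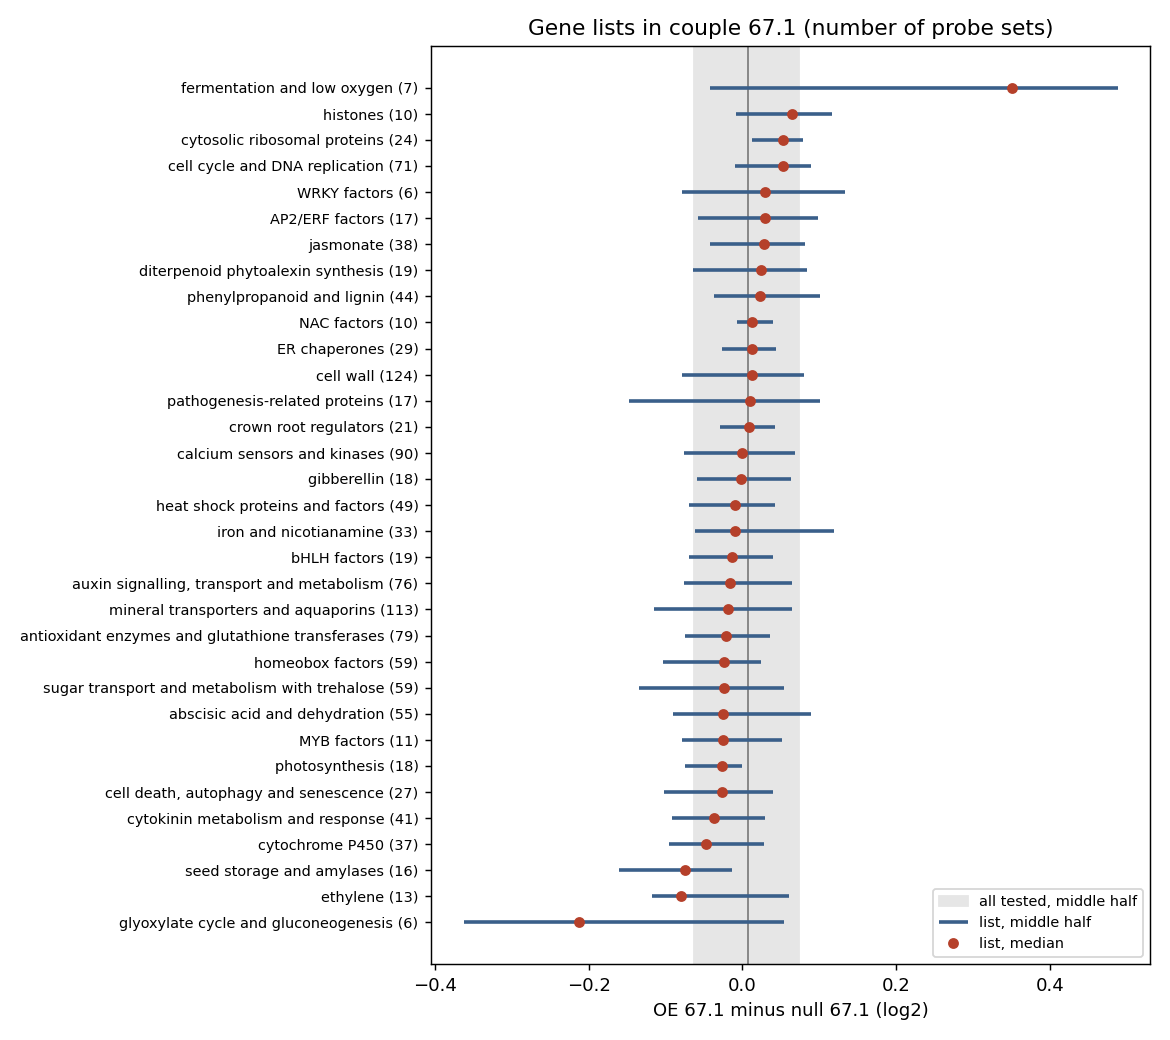
Median (red point) and middle range from the lower to the upper quartile (blue bar) of the difference between OE 67.1 and null 67.1 (log2) for 33 gene lists, with the number of probe sets in brackets and the same range over all tested probe sets in grey. Medians run from -0.21 for glyoxylate cycle and gluconeogenesis to 0.35 for fermentation and low oxygen, lists with 6 and 7 members.

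Transport, wall and signalling lists had no passing member. Of 113 mineral transporters and aquaporins 51 were higher and 62 lower, with 5 higher and 6 lower without overlap (9.73%, against 9.29% of all probe sets). TIP1;2 and Lsi6 led the lower side, and Nramp1 (LOC4342862), a metal transporter, was first on the higher side at 0.32 ± 0.12. Of 33 iron and nicotianamine genes 16 were higher and 17 lower, 4 and 3 of them without overlap (21.2%, against 9.29% of all probe sets), from NAS3 at the lower end to Nramp1, which this list also holds, at the upper end. The 124 cell wall genes had a median of 0.01 and 8 higher and 6 lower without overlap (11.3%, against 9.29% of all probe sets). GT43A (LOC4337665), a glycosyltransferase of a family that makes xylan, differed by 0.33 ± 0.12 and the expansin-like EXLA2 (LOC4349265) by -0.30 ± 0.13. Of 44 phenylpropanoid and lignin genes 28 were higher, with CAD2 first and the laccase LAC7 (LOC4324802) at -0.29 ± 0.10 on the lower side. In 90 calcium sensors and kinases the median was 0, 45 were lower and 14.4% did not overlap, with CML1 first on the lower side and CIPK2 on the higher side. Cytochrome P450 genes had 25 of 37 lower, a median of -0.05 and 13.5% without overlap, with CPD2 (LOC4351461), of brassinosteroid synthesis, at 0.25 ± 0.10 and CYP724B1 (LOC4336116), which acts in the same pathway, at -0.21 ± 0.10. Of 18 photosynthesis genes 13 were lower, with a median of -0.03, and without replicate 3 of null 67.1, 12 were higher. LFNR1 differed by 0.31 ± 0.11 and ISP (LOC4343570), of the cytochrome complex, by -0.13 ± 0.11.

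Responses were then set beside those of couple 67.5. No array is shared between the couples. In couple 67.5, 83 probe sets passed (0.342%), against 4 in couple 67.1, and the couples differed beyond the spread of the arrays in 8 (0.033%). In couple 67.1, 3 of these 8 had the more positive difference and 5 the more negative.

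LOC9267697 differed most between the couples, by 3.57 ± 0.40 (difference of couple 67.1 minus that of couple 67.5, limma adjusted p = 0.00223). It rose in couple 67.1 and fell in couple 67.5, where OE 67.5 had 4.35, 3.68 and 4.18 and null 67.5 had 5.16, 5.56 and 6.40. For LOC4343264 the difference between couples was 1.32 ± 0.20 (limma adjusted p = 0.0398). Its levels in couple 67.5 were 4.48, 4.72 and 4.67 in OE 67.5 and 4.59, 4.70 and 4.62 in null 67.5, a difference of -0.01 ± 0.14, so OE 67.1 alone lay above the other lines. ICL fell in both couples and less in couple 67.1, where the difference was -0.84, against -1.92 ± 0.11 in couple 67.5 (1.08 ± 0.15 between couples, limma adjusted p = 0.02). LOC4331887 rose alike in both, with a difference between couples of 0.14 ± 0.16 (limma adjusted p = 0.992).

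The other 5 rose in couple 67.5 and did not pass in couple 67.1. LOC9272344 lay at 4.08, 4.63 and 4.31 in OE 67.1 and 4.84, 5.09 and 5.09 in null 67.1, a difference of -0.67 ± 0.14, against 1.54 ± 0.14 in couple 67.5. LOC4329504 had 5.30, 5.17 and 5.45 in OE 67.1 and 5.34, 5.23 and 5.38 in null 67.1, which overlapped and differed by -0.007 ± 0.10, against 1.36 ± 0.10 in couple 67.5. The differences between couples of these genes were -2.21 ± 0.20 and -1.37 ± 0.14 (limma adjusted p = 0.000699 and 0.00174). LOC9272503 differed by 0.007 ± 0.15 in couple 67.1 and by 1.34 ± 0.15 in couple 67.5. LOC4349509 and LOC4348634 differed by -0.40 ± 0.10 and -0.45 ± 0.15 in couple 67.1 and by 0.69 ± 0.10 and 0.94 ± 0.15 in couple 67.5. Of these 8 genes, LOC9267697, LOC9272344 and LOC4329504 kept the call under every alternative run, while each of the other 5 lost it under at least 8 alternatives, most of which left out 1 array, with adjusted p-values of up to 0.162 (LOC9272503).

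The genes that moved in couple 67.5 were mostly of the same sign in couple 67.1 and small there. Of 58 that fell in couple 67.5, 44 were lower in couple 67.1 (47.3% of all probe sets were lower there). Of all 58, 20 were lower without overlap in couple 67.1 (4.48% of all probe sets). In couple 67.1, 2 of the 58 passed, ICL in the same direction and LOC9267697 in the opposite one. The median of the 58 was -0.16 in couple 67.1 and -0.74 in couple 67.5, where they had been chosen for their size. Of 25 that rose in couple 67.5, 17 were higher in couple 67.1 (52.7% of all probe sets were higher there). Of all 25, 4 were higher without overlap in couple 67.1 (4.8% of all probe sets) and 1, LOC4331887, passed there. The median of the 25 was 0.05 in couple 67.1 and 0.73 in couple 67.5. In the other direction, of the 45 probe sets with an unadjusted p under 0.001 in couple 67.1, 28 had the same sign in couple 67.5 (62.2%, against 56.6% of all probe sets). On the higher side it was 11 of 20, with a median of 0.55 in couple 67.1 and 0.02 in couple 67.5, and on the lower side 17 of 25, with medians of -0.67 and -0.26 in the same order.

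**Figure D5:**
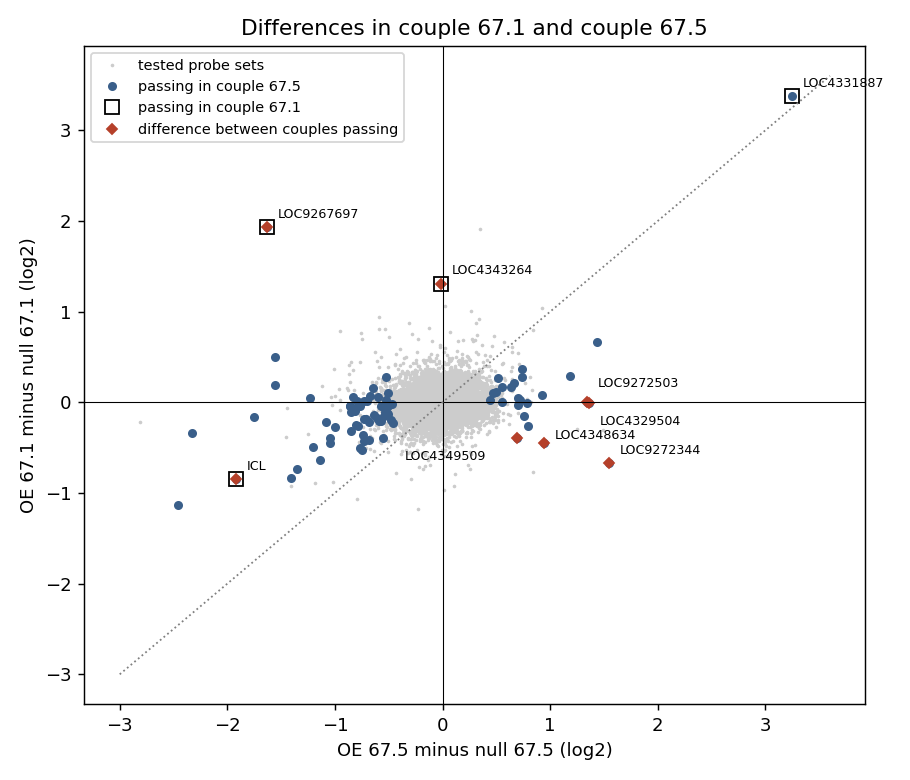
Difference between overexpressing and null line in couple 67.1 (vertical axis, log2) against that in couple 67.5 (horizontal axis, log2) for all tested probe sets, with those that passed marked. LOC4331887 lies near the dotted line of equal differences, and LOC9267697 lies at 1.94 in couple 67.1 and -1.63 in couple 67.5.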

How the data were processed

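Biotinylated cRNA made from the stem base RNA was hybridised to 1-colour Affymetrix arrays, per the labels' protocols. The deposited log2 values come from RMA, per the submitters' processing notes; that they are on the log2 scale is read from the values, and no version, build or annotation is given in the sources used here. RMA makes the distributions of the arrays alike, so differences in total RNA cannot be seen. All columns of the table belong to the 12 samples. Of 36643 probe sets, the platform annotation paired 24251 with a gene (24161 with 1 gene, 90 with several), and these were tested. Names came from symbols and synonyms in the gene table of assembly ASM3414082v1, and 2743 probe sets had an informative one. That table was used for names and gene order only, so no coordinates are given.

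Line names in the labels gave the groups. A model with 4 line means was fitted to all 12 arrays in limma 3.58.1 under R 4.3.3 with lmFit and eBayes, leaving 8 residual degrees of freedom, with two-sided tests, Benjamini-Hochberg adjustment over the 24251 probe sets and a threshold of 0.05. With 3 arrays a line, the smallest p an exact permutation test allows is 0.1, and no such test was run. The fit was tested on simulated data. Named genes are those that passed, the 8 in each direction with the smallest p, the 12 in each direction with the smallest p among informatively named genes, the first in each direction of every list, and those that passed for the difference between couples, up to 5 in each direction; others are said to be chosen after their values were seen. The lists and rules were chosen with earlier results of these data known, so nothing here is independent support for them. Lists were described by counts and medians, with no test of their own. Alternatives were a replicate block, the 6 arrays of the couple alone, all probe sets, only those above the median level, a further quantile normalization, an intensity trend with robust variance, and leaving out each array. Reported errors are SEs of the model unless SD is stated. Sequences were not used here.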

Additional observations from a re-analysis of the deposited data

Results flagged for a closer look

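The difference between the overexpressing and the null line was itself different in couple 67.1 and couple 67.5 for 8 probe sets, by limma's test of the difference. The values, couple 67.1 minus couple 67.5, were 3.57 for LOC9267697, 1.32 for LOC4343264 and 1.08 for ICL (LOC4343441), and -2.21 for LOC9272344, -1.37 for LOC4329504, -1.08 for LOC4349509, -1.39 for LOC4348634 and -1.33 for LOC9272503. In LOC9267697, LOC9272344, LOC4349509 and LOC4348634 the arrays of the lines did not overlap in couple 67.1, and the sign was opposite to that in couple 67.5. Of these only LOC9267697 passed in couple 67.1. Over all probe sets 9.29% did not overlap there, and choice by the difference between couples favours opposite signs and separated arrays.

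Signal that differed between OE 67.1 and null 67.1 also appeared in 3 probe sets that the annotation pairs with no gene. Their differences were 6.58 for probe set 16362807, -4.27 for probe set 16270679 and -2.65 for probe set 16342606, each in the same direction in couple 67.5.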

How the results depend on the processing

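In couple 67.1, where 4 probe sets passed, 7 passed with only those above the median level, 7 after a further quantile normalization and 7 with an intensity trend and robust variance, and 2 to 6 when 1 array was left out. It was 2 without replicate 1 or 2 of null 67.1 or replicate 1 of OE 67.1. The brighter bands held 7 after quantile normalization and 2 to 6 when 1 array was left out. Over all lists, 2 members passed with only the arrays of the couple and 0 to 3 when 1 array was left out. The difference between couples, with 8 passing, had 5 after quantile normalization and 3 to 7 when 1 array was left out. In couple 67.5, with 83 passing, 33 passed when all probe sets were tested and 20 to 88 when 1 array was left out. The causes were not tested.

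The main fit did not pair arrays by replicate number, and whether equal numbers mark a shared day is not stated in the labels. Deviations of same-numbered arrays in couple 67.1 correlated at 0.0803, 0.24 and 0.422. Each OE 67.1 array correlated best with the null 67.1 array of its own number. Replicates 2 and 3 of null 67.1 did likewise, while replicate 1 correlated best with replicate 2 of OE 67.1. A pairing is thus not excluded. With a replicate block, 3 probe sets passed in couple 67.1, all among the 4, with 10 for the difference between couples and 118 in couple 67.5. Of 96 named genes that did not pass, 7 passed under at least 1 of 18 alternatives.

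Directions turned in 7 named genes with small differences and in no passing gene. After quantile normalization LOC9272503 was at -0.004 and LOC4346803 at -0.017. With 1 array left out, LOC4329504 ranged from -0.08 to 0.06, LOC9272503 from -0.093 to 0.151, LOC4324510 from -0.086 to 0.008, LOC4326977 from -0.235 to 0.059, LOC4346803 from -0.045 to 0.103, LOC4324824 from -0.1 to 0.128 and LOC4328969 from -0.006 to 0.072. In the main fit no difference under 0.841 was called in couple 67.1, at 3 arrays a line and a median SE of 0.109. This is not a fixed limit of detection. In couple 67.5, at the same number of arrays and median SE, the smallest difference that passed was 0.441. With an intensity trend and robust variance LOC9272192 passed in couple 67.1 at 0.674.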
